A study of Mus musculus with 24 samples.

Results

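The Nr4a genes Nr4a1, Nr4a2 and Nr4a3 encode a family of orphan nuclear receptors, and their transcripts were followed in mouse bone marrow-derived macrophages (BMDMs) during the first 2 h of exposure to lipopolysaccharide (LPS, a bacterial ligand of TLR4). The members were the rows of the expression table that carry one of these 3 symbols. They were 3 of the 24273 genes in the table, and all 3 were among the 13901 genes that passed the filter on low values. Expression was measured by RNA sequencing in cells labelled LysM-Cre, the control, or FosKO, and the comparison asked which transcripts depend on FOS. Cells of each genotype were left untreated (0 h) or received LPS at 100 ng/ml for 0.5, 1 or 2 h, with 3 libraries in each of the 8 groups.

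Both genotypes came from C57BL/6 mice and carried LysM-Cre, a Cre recombinase placed at the lysozyme locus Lyz2, which is active in myeloid cells. In FosKO cells both Fos alleles were floxed, so that Cre would delete them. The design text calls the controls LysM-Cre, whereas the study text gives them 1 floxed Fos allele in addition, and these data do not settle which applied. The age of the marrow donors was not stated. Marrow cells from femurs were grown for 7 days in L-cell conditioned medium before they were replated and stimulated. The labels do not say which libraries came from separate mice, so p-values measure the spread between these libraries. In bulk RNA, fewer cells that express a gene and less RNA per cell cannot be told apart.

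NUR77 (Nr4a1), NURR1 (Nr4a2) and NOR1 (Nr4a3) share a DNA-binding domain and a ligand-binding domain whose pocket is filled by bulky side chains, and they act on transcription without a known hormone. Their activity is therefore set largely by how much of each protein is made, and the genes behave as immediate early genes that are switched on by cAMP, calcium and MAP kinase signals. In macrophages they are known as early LPS-induced genes that restrain inflammatory gene expression. CREB acts through the cAMP response element (CRE), MEF2 and the SRF and TCF factors act through other sites, and FOS binds AP-1 sites with JUN partners.

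On the GRCm38 build, Nr4a1 (ENSMUSG00000023034) occupies chromosome 15, plus strand, from 101254269 to 101274795. Nr4a2 (ENSMUSG00000026826) is on chromosome 2, minus strand, from 57106830 to 57124003, and Nr4a3 (ENSMUSG00000028341) is on chromosome 4, plus strand, from 48045153 to 48086447. All are protein coding in the GENCODE annotation of that build. The sequences upstream of the RefSeq starts are shown because all 3 windows hold the same motif several times, although the genes responded to LPS on different schedules. They are given 5′ to 3′ on the strand of the gene, from the RefSeq promoter table for GRCm38.p6, and capitals mark each CRE core (TGACG, or CGTCA when read on the other strand). The Nr4a1 window, chr15:101266596-101266845 on the plus strand, lies inside the annotated gene and overlaps no exon. The Nr4a2 window is chr2:57124004-57124253 on the minus strand. For Nr4a3 the first 98 bases of the window, chr4:48045055-48045152 on the plus strand, are printed, since the other 152 lie in an annotated exon.
Nr4a1: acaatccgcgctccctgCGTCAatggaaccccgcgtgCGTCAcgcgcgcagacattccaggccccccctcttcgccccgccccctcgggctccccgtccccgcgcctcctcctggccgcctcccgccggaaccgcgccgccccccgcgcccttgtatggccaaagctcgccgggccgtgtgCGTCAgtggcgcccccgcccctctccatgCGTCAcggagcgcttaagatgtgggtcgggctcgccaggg
Nr4a2: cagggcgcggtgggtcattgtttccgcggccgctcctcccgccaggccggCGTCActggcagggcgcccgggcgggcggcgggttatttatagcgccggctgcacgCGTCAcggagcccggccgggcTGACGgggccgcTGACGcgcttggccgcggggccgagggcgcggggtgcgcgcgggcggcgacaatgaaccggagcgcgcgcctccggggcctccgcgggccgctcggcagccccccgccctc
Nr4a3: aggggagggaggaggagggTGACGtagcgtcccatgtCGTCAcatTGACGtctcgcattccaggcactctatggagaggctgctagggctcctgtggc
Each 250-base window held 4 CRE cores, of which 3 are in the printed Nr4a3 stretch. Among 32841 RefSeq promoter windows of the same length, 17.8% held at least 1 core and 45 (0.137%), at 44 genes, held 4 or more. No member window held the full CRE (TGACGTCA, which contains a core on each strand, in 1.55% of all windows), the AP-1 site (TGANTCA, 6.75%) or the NBRE to which NR4A proteins bind (AAAGGTCA, 1.34%). None held the strict CArG box of SRF (CCWWWWWWGG, W for A or T, 1.47%) or an NF-kB site (GGGRNNYYCC, R for A or G, Y for C or T, 7.25%). Each was searched on both strands, and near matches were not counted. By chromatin immunoprecipitation the study found SRF at the Nr4a1 promoter with and without LPS. The TCF core (CCGGAA, 12.03% of windows) occurred once, in the Nr4a1 window. These matches describe letters in a short window and are neither measured binding sites nor a cause of the values.

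Fos itself ranged from 9.42 to 13.57 in the LysM-Cre libraries and from 12.41 to 12.93 in FosKO-labelled libraries, on the log2 scale of the deposited values. It was higher in the latter at 0, 1 and 2 h and lower at 0.5 h (-0.77), so the gene-level value does not check the label, and the libraries are called FosKO-labelled below. Lyz2, which carries Cre, was higher in FosKO-labelled libraries by 4.89 to 5.17 at the 4 times. The study text does not give the number of Cre alleles in each genotype. Loss of FOS and any difference at the Lyz2 locus or in Cre therefore cannot be told apart in the genotype comparisons below. All 8 macrophage markers were expressed, with Adgre1 at 14.61 or above and Csf1r at 14.95 or above in every library. The summed linear level of the 8, Lyz2 included, was higher in every FosKO-labelled library (208250 to 270861) than in any LysM-Cre library (145771 to 181590). That separation rested on Lyz2 itself, at 69112 to 82595 in FosKO-labelled libraries and 1877 to 3030 in LysM-Cre libraries, and it does not hold without Lyz2. At 0 h the sums were 208250 to 215943 against 145771 to 148157, with Lyz2 at 69112 to 71182 against 1877 to 2101. The T cell marker sum was 17.4 to 20.3 in FosKO-labelled libraries against 12.3 to 14.2 at 0 h, and 48.3 to 52.7 against 34.0 to 50.2 at 2 h. At 0.5 h (15.9 to 18.1 against 13.0 to 16.3) and 1 h (14.7 to 18.7 against 15.3 to 19.7) the genotypes also overlapped. The sum of the 3 endothelial markers was higher in every FosKO-labelled library (504 to 1039) than in any LysM-Cre library (331 to 430). Most of the T cell sum was Lck, since Cd3d, Cd3e and Cd3g were below 0 (log2) in every library, and most of the endothelial sum was Kdr. The neutrophil sum was lower in FosKO-labelled libraries at every time without overlap (45.7 to 47.4 against 57.8 to 69.2 at 0.5 h, and 49.4 to 56.9 against 77.8 to 103.8 at 2 h), with Ly6g and Elane below 0 (log2) in every library. The dendritic cell sum was lower in them at 2 h (47.9 to 55.8 against 77.4 to 85.6). The B cell sum was lower in them without overlap at 0.5 h (33.8 to 42.4 against 45.1 to 50.4), 1 h (35.2 to 43.0 against 44.6 to 48.1) and 2 h (40.0 to 46.0 against 46.9 to 52.5), and the fibroblast sum at 0 h (17.1 to 23.8 against 25.1 to 31.7) and 1 h (16.5 to 22.9 against 23.3 to 31.9). Their part in the Nr4a results was not tested. The 18S ribosomal RNA level lay between 16.653 and 16.998 in 5 libraries, all of 0.5 or 1 h and of both genotypes, and between 18.57 and 19.39 in the other 19. Read depth cannot be recovered from normalised values, and counting intervals are therefore not given.

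The 3 transcripts followed different schedules after LPS. Nr4a1 rose first and was no longer called against 0 h at 2 h, Nr4a3 rose from 1 h and was highest at 2 h, and Nr4a2 rose late and little. The FosKO-labelled libraries had less Nr4a1 at 0.5 and 1 h, more Nr4a2 at 2 h, and Nr4a3 values for which no genotype difference was called. A gene was called at a limma p under 0.05 after Benjamini-Hochberg adjustment over all 13901 genes. All values below are on the log2 scale, and differences between genotypes are given as FosKO-labelled minus LysM-Cre.

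**Figure D1:**
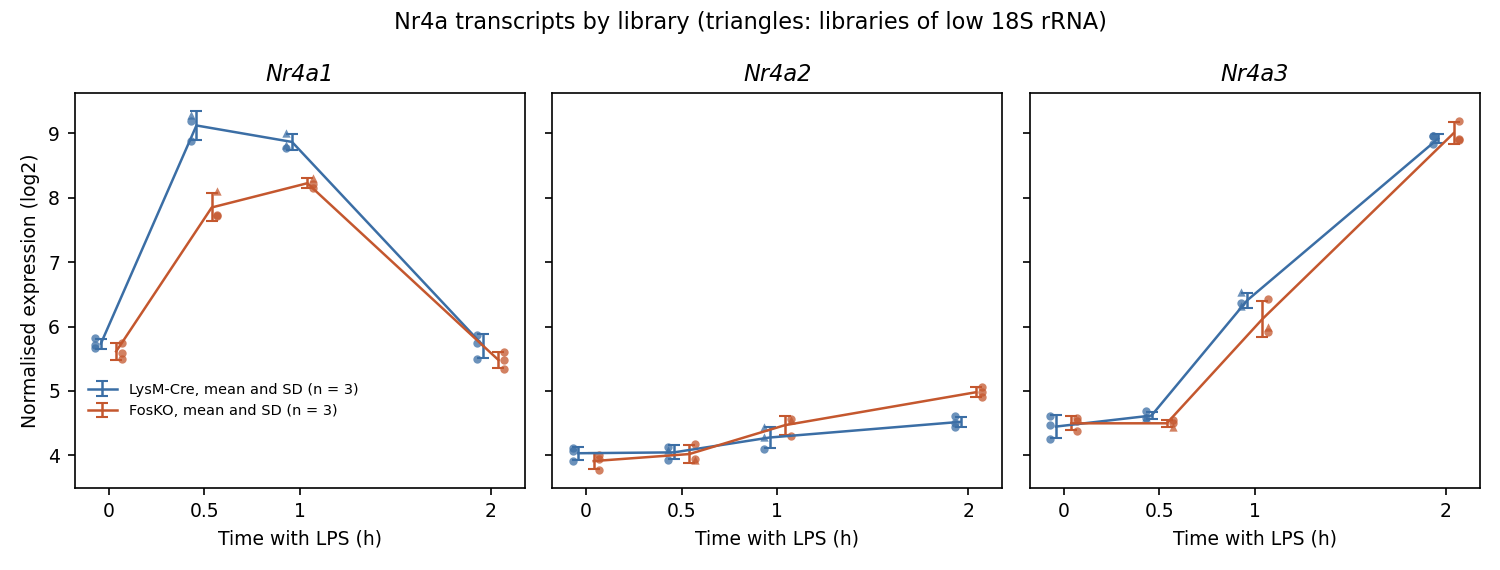
Normalised expression (log2) of Nr4a1, Nr4a2 and Nr4a3 against hours with LPS, with a point for each library and lines through the group means with the SD (n = 3), blue for LysM-Cre and orange for FosKO-labelled libraries, and triangles for the 5 libraries of low 18S RNA. Nr4a1 peaks at 9.12 in LysM-Cre at 0.5 h and at 8.22 in FosKO-labelled libraries at 1 h, whereas Nr4a3 is highest in both at 2 h, after a rise of 4.47 and 4.50.

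Nr4a1 encodes NUR77, the founding member of the family. Its LysM-Cre values were 5.67, 5.82 and 5.71 before LPS and 8.88, 9.20 and 9.29 after 0.5 h. Libraries of 1 h had 8.77, 8.82 and 9.01, and those of 2 h were 5.50, 5.86 and 5.74. The 0.5 and 1 h libraries thus stood far above those of 0 and 2 h, and the latter overlapped. FosKO-labelled libraries gave 5.75, 5.59 and 5.50 before LPS and 8.10, 7.73 and 7.72 after 0.5 h. The 1 h values were 8.31, 8.21 and 8.16, and those of 2 h were 5.48, 5.35 and 5.61. Every FosKO-labelled library lay below every LysM-Cre library at 0.5 and at 1 h, and the genotypes overlapped at 0 and 2 h.

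In LysM-Cre, Nr4a1 rose 10.5-fold by 0.5 h, a change of 3.39 (95% interval 3.14 to 3.64, limma adjusted p 8.97e-15) that ranked 8 by size among the 13901 genes. It was still 8.76-fold above 0 h at 1 h (3.13, adjusted p 9.52e-15) and the 2 h change of -0.03 was not called (interval -0.28 to 0.22, adjusted p 0.839). Between 1 and 2 h the transcript fell by 3.16 (adjusted p 1.06e-14). In FosKO-labelled libraries the rise was 4.71-fold at 0.5 h (2.24, adjusted p 1.52e-11) and 6.11-fold at 1 h (2.61), and the difference from 0 h was -0.13 at 2 h (adjusted p 0.35). The highest group mean was that of 0.5 h in LysM-Cre and that of 1 h in FosKO-labelled libraries. From 0.5 to 1 h Nr4a1 rose by 0.38 in FosKO-labelled libraries (adjusted p 0.0231), while the LysM-Cre difference of -0.26 was not called (adjusted p 0.13). The rise of 0.38 was not stable, since leaving out 1 of FosKO-labelled 0.5 h replicates 2 or 3 or 1 h replicate 1 gave 0.32, 0.31 and 0.33 with the call lost, and a fit of only the groups compared gave an adjusted p of 0.0619.

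The genotype difference in Nr4a1 was -1.27 at 0.5 h (SE 0.12, interval -1.52 to -1.02, adjusted p 5.2e-08), or 0.414 times the LysM-Cre level. At 1 h it was -0.64 (interval -0.89 to -0.39, adjusted p 0.000262), or 0.641 times. The values at 0 h (-0.12, adjusted p 0.48) and 2 h (-0.22, adjusted p 0.143) were not called. Within the libraries of high and of low 18S RNA the 0.5 h difference was -1.31 (2 against 2 libraries) and -1.19 (1 against 1), and the 1 h difference was -0.59 (2 labelled FosKO against 1) and -0.60 (1 against 2). The LPS response itself was smaller in FosKO-labelled libraries by 1.15 at 0.5 h (a difference of -1.15, SE 0.17, interval -1.51 to -0.80, adjusted p 0.00283), a call that was lost when only the 4 groups compared were fitted (adjusted p 0.0835). At 1 h the response differed by -0.52 (interval -0.87 to -0.17, adjusted p 0.235), which was not called. A replicate block within genotype gave that difference a call (limma adjusted p 0.0497).

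Nr4a3 encodes NOR1. Its LysM-Cre values were 4.62, 4.26 and 4.47 before LPS and 4.58, 4.69 and 4.59 after 0.5 h. The 1 h libraries were 6.36, 6.53 and 6.33, and those of 2 h were 8.84, 8.96 and 8.96. These libraries formed 3 separate levels, with 0 and 0.5 h together at the bottom. FosKO-labelled libraries gave 4.38, 4.53 and 4.58 before LPS and 4.44, 4.51 and 4.55 after 0.5 h. Libraries of 1 h had 6.00, 5.92 and 6.43, and those of 2 h were 8.90, 8.91 and 9.20. The same levels were seen, and the genotypes overlapped at 0, 1 and 2 h, while at 0.5 h every FosKO-labelled library lay below every LysM-Cre library by a small margin.

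Nr4a3 rose 22.2-fold by 2 h in LysM-Cre (4.47, interval 4.23 to 4.72, limma adjusted p 7.56e-18) and 22.7-fold in FosKO-labelled libraries (4.50, adjusted p 7.02e-18), which ranked 17 and 16 by size. At 1 h it had risen 3.89-fold (1.96) and 3.07-fold (1.62), with both called. At 0.5 h the changes of 0.17 and 0.00 were not called (adjusted p 0.526 and 0.998). The change of 0.17 is smaller without LysM-Cre 0 h replicate 2, the lowest value of its group (4.26). Nr4a3 thus still increased between 1 and 2 h, by 2.51 in LysM-Cre and 2.88 in FosKO-labelled libraries, over the step in which Nr4a1 fell. The genotype differences in Nr4a3 were 0.05, -0.12, -0.29 and 0.08 at 0, 0.5, 1 and 2 h, and none was called (lowest adjusted p 0.0638, at 1 h). The interval at 1 h was -0.53 to -0.04, and without FosKO-labelled replicate 3 the difference there was -0.45 and was called (adjusted p 0.00349). At 2 h the interval was -0.16 to 0.33, so a difference of the size seen in Nr4a1 at 0.5 h lies outside it. The difference in response was 0.03 at 2 h (interval -0.31 to 0.38).

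Nr4a2 encodes NURR1, best known from dopamine neurons. Its LysM-Cre values were 4.12, 4.07 and 3.92 before LPS and 4.13, 3.93 and 4.08 after 0.5 h. The 1 h values were 4.10, 4.29 and 4.44, and those of 2 h were 4.45, 4.51 and 4.61. Neighbouring times overlapped at every step except from 1 to 2 h, where the lowest 2 h value lay just above the highest 1 h value. FosKO-labelled libraries gave 3.95, 3.77 and 4.01 before LPS and 3.93, 3.95 and 4.18 after 0.5 h. The 1 h libraries were 4.54, 4.30 and 4.56, and those of 2 h were 4.99, 4.90 and 5.05. All FosKO-labelled libraries of 2 h lay above every other library of the series, LysM-Cre at 2 h included.

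In LysM-Cre, Nr4a2 rose 1.40-fold by 2 h (0.49, interval 0.27 to 0.71, limma adjusted p 0.000474), and the 1 h change of 0.24 was not called (adjusted p 0.082). That change was 0.069 in the high 18S libraries and 0.35 under quantile normalisation, where it was called (adjusted p 0.0191). In FosKO-labelled libraries it rose 1.47-fold at 1 h (0.56, adjusted p 0.000313) and 2.10-fold at 2 h (1.07, interval 0.85 to 1.29, adjusted p 2.07e-08). The genotype difference in Nr4a2 was 0.46 at 2 h (SE 0.11, interval 0.24 to 0.68, adjusted p 0.00138), or 1.38 times the LysM-Cre level. At 0, 0.5 and 1 h it was -0.12, -0.03 and 0.19, none of which was called. The LPS response of Nr4a2 was larger in FosKO-labelled libraries by 0.58 at 2 h (interval 0.27 to 0.90, adjusted p 0.0114), and the differences of 0.10 and 0.31 at 0.5 and 1 h were not called (adjusted p 0.939 and 0.653), the former between 0.016 and 0.15 with 1 library left out.

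**Figure D2:**
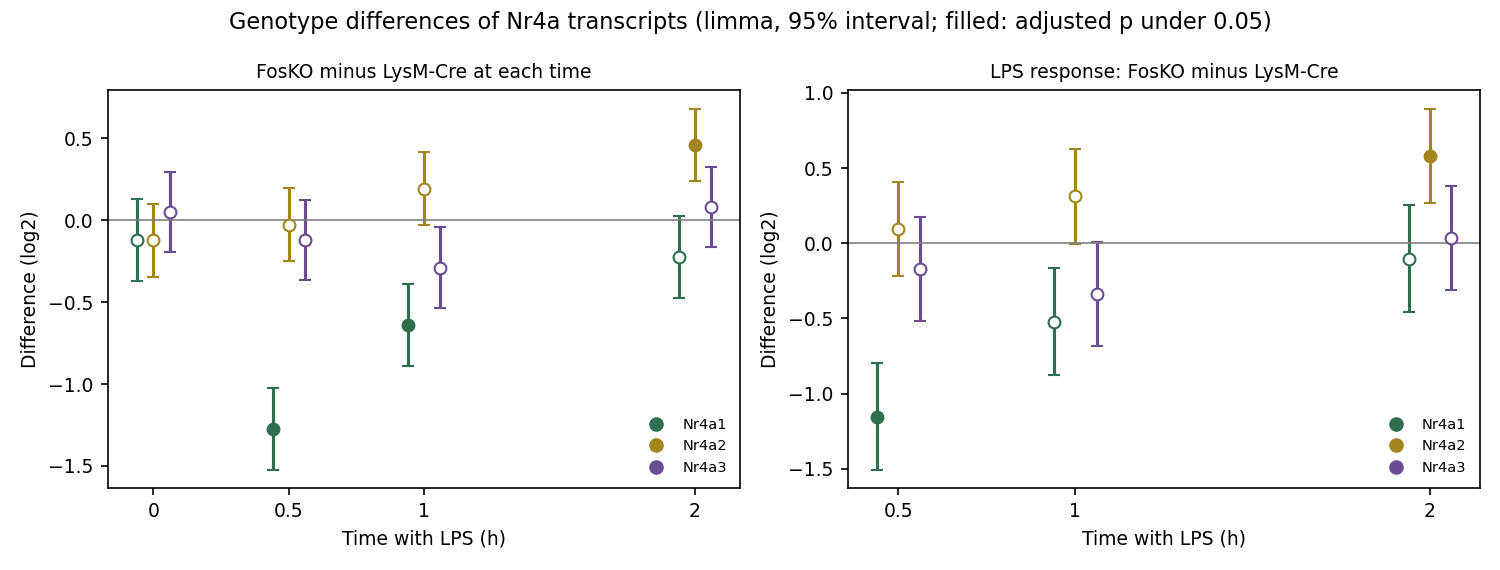
Differences (log2, limma estimate with its 95% interval) between FosKO-labelled libraries and LysM-Cre libraries in the level at each time (left) and in the change from 0 h (right), for Nr4a1 in green, Nr4a2 in yellow and Nr4a3 in purple, filled where the adjusted p was under 0.05. The filled points are Nr4a1 at 0.5 h (-1.27) and 1 h (-0.64), Nr4a2 at 2 h (0.46), and, for the response, Nr4a1 at 0.5 h (-1.15) and Nr4a2 at 2 h (0.58).

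Calls in the family are read against the share of all tested genes called by the same limma rule. LPS called 1, 2 and 2 of the 3 members at 0.5, 1 and 2 h in LysM-Cre, where 7.24%, 35.8% and 60.8% of the 13901 genes were called. In FosKO-labelled libraries it called 1, 3 and 2 members against 5.92%, 32.6% and 62.1%. From 0.5 to 1 h it called 1 member in LysM-Cre (26.8% of all genes) and 3 in FosKO-labelled libraries (27.5%), and from 1 to 2 h it called 2 (52.3%) and 3 (50.7%). The genotype comparison called 0 members at 0 h (35.4% of genes, and 0 members at an unadjusted p under 0.05) and 1 member at each later time. Those shares were 40.9% at 0.5 h (19.7% lower in FosKO-labelled libraries, the direction of Nr4a1), 33.9% at 1 h, and 44.6% at 2 h (24.4% higher, the direction of Nr4a2). With shares of this size in every genotype comparison, 1 member of 3 is close to the background. The share of all genes whose libraries did not overlap between genotypes was not counted. Calls of a difference in response were rarer, at 0.115% of genes (16 genes) at 0.5 h, 1.22% at 1 h and 15% at 2 h. Nr4a1 was among the 16 at 0.5 h, no member was called at 1 h (Nr4a1 alone had an unadjusted p under 0.05), and Nr4a2 was among those at 2 h.

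The order of the 8 groups differed between members. For Nr4a1 the 0 and 2 h groups of both genotypes, with means from 5.48 to 5.73, overlapped their neighbours at the bottom. Above them stood FosKO-labelled 0.5 h (7.85 ± 0.22, SD, n = 3), FosKO-labelled 1 h (8.22 ± 0.08), LysM-Cre 1 h (8.87 ± 0.13) and LysM-Cre 0.5 h (9.12 ± 0.22), and of these only the LysM-Cre pair overlapped. For Nr4a2 every neighbour in the order overlapped the next except LysM-Cre 2 h (4.52 ± 0.08) and FosKO-labelled 2 h (4.98 ± 0.08). For Nr4a3 the genotypes were neighbours at each LPS time and overlapped at 1 h (6.12 ± 0.27 labelled FosKO, 6.41 ± 0.11) and at 2 h (9.001 ± 0.17 and 8.92 ± 0.07).

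Whether the members differed in their genotype effect was tested on the difference between 2 members within each library. Gene length and library scaling cancel in this comparison, and the levels of different genes are not compared. If the deposited values draw low genes towards their mean, as in a regularised log, that effect need not cancel. The values of FosKO-labelled minus LysM-Cre were averaged over the 3 LPS times, and genotype labels were permuted within times in a two-sided exact permutation test of 8000 arrangements, whose smallest p is 0.00025. The test treats libraries of different times as independent, and the labels do not say whether they share mice. Were the same 3 mice of each genotype used at all times, no p below 0.1 could be reached. Nr4a1 relative to Nr4a2 was lower in FosKO-labelled libraries by 0.92 (a difference of -0.92, exact p 0.00025, adjusted over the 3 pairs 0.00075), with groups that did not overlap at 0.5 h (-1.25), 1 h (-0.83) or 2 h (-0.68). Nr4a1 relative to Nr4a3 differed by -0.60 (exact p 0.0005, adjusted 0.00075), with values of -1.15, -0.35 and -0.31 and an overlap at 1 h. Nr4a2 relative to Nr4a3 differed by 0.32 (exact p 0.00225, adjusted 0.00225), with 0.09 at 0.5 h, where the groups overlapped, and 0.48 and 0.38 at 1 and 2 h, where they did not. Before LPS the groups overlapped for all 3 pairs (0.00, -0.17 and -0.17).

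**Figure D3:**
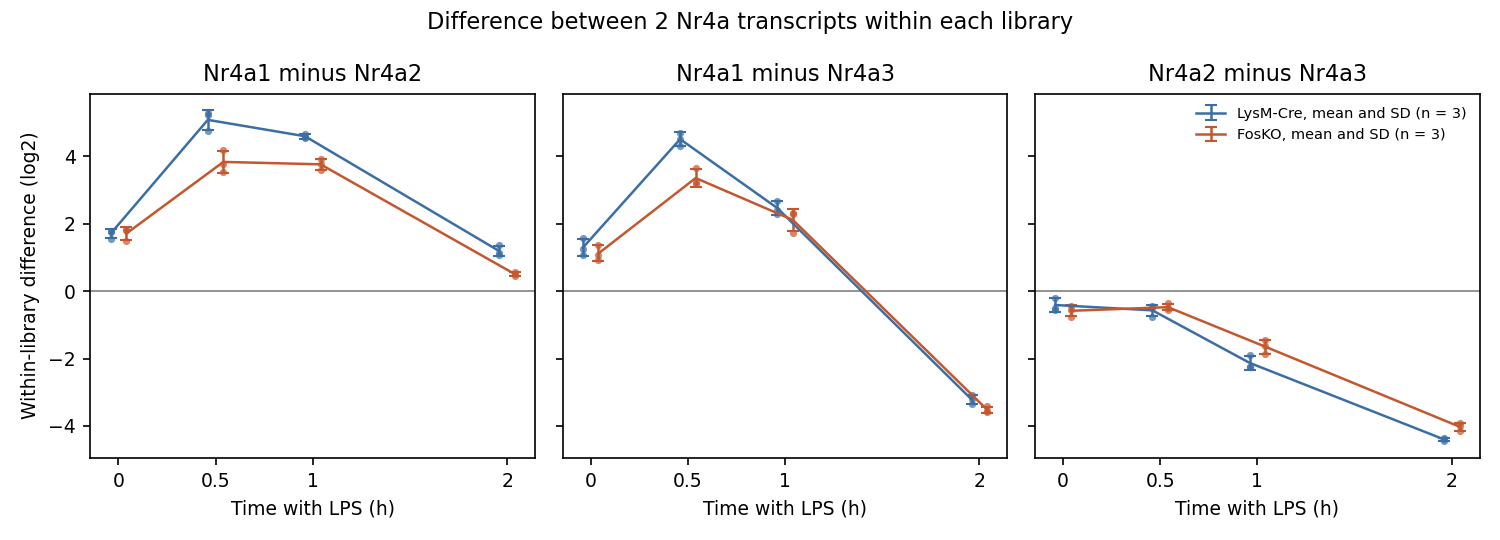
Difference between 2 Nr4a transcripts within each library (log2) against hours with LPS, with a point for each library and group means with the SD (n = 3), blue for LysM-Cre and orange for FosKO-labelled libraries. The gap between the lines is the genotype effect on one gene relative to the other, and it reaches -1.25 for Nr4a1 minus Nr4a2 at 0.5 h and 0.48 for Nr4a2 minus Nr4a3 at 1 h.

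Over the 24 libraries, which share 4 times and 2 genotypes, Nr4a2 and Nr4a3 had a Pearson r of 0.88, whereas Nr4a1 had -0.25 with Nr4a2 and -0.35 with Nr4a3. These values describe the profiles over libraries that differ in time and genotype, and they are given without a test. The genes named next were picked over the same libraries, so a genotype difference like that of the member is partly built in. The 5 tested genes whose profile was most like that of Nr4a1 were Egr2 (r 0.98), a zinc finger immediate early gene, Kdm6bos (0.96), an RNA named for the strand opposite Kdm6b, Ppp1r10 (0.94), Nuak2 (0.94) and Adamts1 (0.94), a secreted protease. At 0.5 h their genotype differences were -0.48, -0.25, -0.02, -0.07 and -0.66 beside -1.27 for Nr4a1. Egr2 was already lower at 0 h (-0.59, limma adjusted p 9.08e-07), and its response at 0.5 h differed by 0.11, which was not called, beside -1.15 for Nr4a1. By 1 h the Egr2 response was larger in FosKO-labelled libraries by 0.44 (limma adjusted p 0.0205), beside an uncalled -0.52 for Nr4a1. For Nr4a2 they were Dusp16 (0.95), a JNK phosphatase, Gmeb2 (0.95), Ccng2 (0.94), Atp10d (0.94) and Nck1 (0.94), with genotype differences at 2 h of 0.65, 0.55, 0.95, 0.78 and 0.74 beside 0.46 for Nr4a2. For Nr4a3 they were Aebp2 (0.997), Adamts4 (0.996), Myo1g (0.994), Cish (0.994), an inhibitor of cytokine receptor signalling, and Stx6 (0.993). In LysM-Cre these rose by 1.81, 6.37, 1.30, 5.19 and 1.40 at 2 h beside 4.47 for Nr4a3, and their genotype differences at 2 h lay between -0.14 and 0.01. Of these differences, Myo1g (-0.12) and Stx6 (-0.14) were called at 2 h. At 1 h Cish (-0.60) and Aebp2 (-0.10) were called lower in FosKO-labelled libraries, and the others were not called.

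Of 46 other nuclear receptor genes, 29 were in the table and 23 passed the filter, and none changed with LPS by as much as Nr4a1 or Nr4a3. In LysM-Cre the limma test called 1 of the 23 at 0.5 h, the retinoic acid receptor Rara (0.24), where 7.24% of all genes were called. At 1 h it called 6 higher and 3 lower, near the background of 35.8%, with the largest changes in the clock repressor Nr1d1 (0.52), Rara (0.50), Nr1i3 (-0.41) and Ppard (0.41). At 2 h it called 6 higher and 10 lower, where 60.8% of all genes were called, led by Nr1d1 (-0.86), the lipid-sensing Pparg (-0.84), Nr2c2 (-0.80) and Rarg (0.68), and the median change was -0.07 beside -0.02 over all tested genes. The increases in Nr4a1 (3.39 at 0.5 h) and Nr4a3 (4.47 at 2 h) therefore stood far outside the range of the others, while that of Nr4a2 at 2 h stood within it in LysM-Cre (0.49). In FosKO-labelled libraries the Nr4a2 rise of 1.07 at 2 h was above those of the 23 receptors outside the family, of which Nr3c1 (0.50) had the highest value. By genotype, 5 of the 23 were higher and 5 lower in FosKO-labelled libraries at 0.5 h, a total near the background of 40.9% of all genes, with Nr1h3, the oxysterol receptor LXR alpha (0.93), Nr1d1 (-0.72) and Esr1 (0.64) ahead of the rest. At 1 h 8 were higher and 5 lower, above the background of 33.9% of all genes. At 2 h 7 were higher and 6 lower, where 44.6% of all genes were called, and Rara (-0.95) differed most. The response differed in 2 upward and 2 downward at 2 h, near the background of 15% of all genes, of which Rara (-0.91) was the largest and the glucocorticoid receptor Nr3c1 (0.32) went the same way as Nr4a2.

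**Figure D4:**
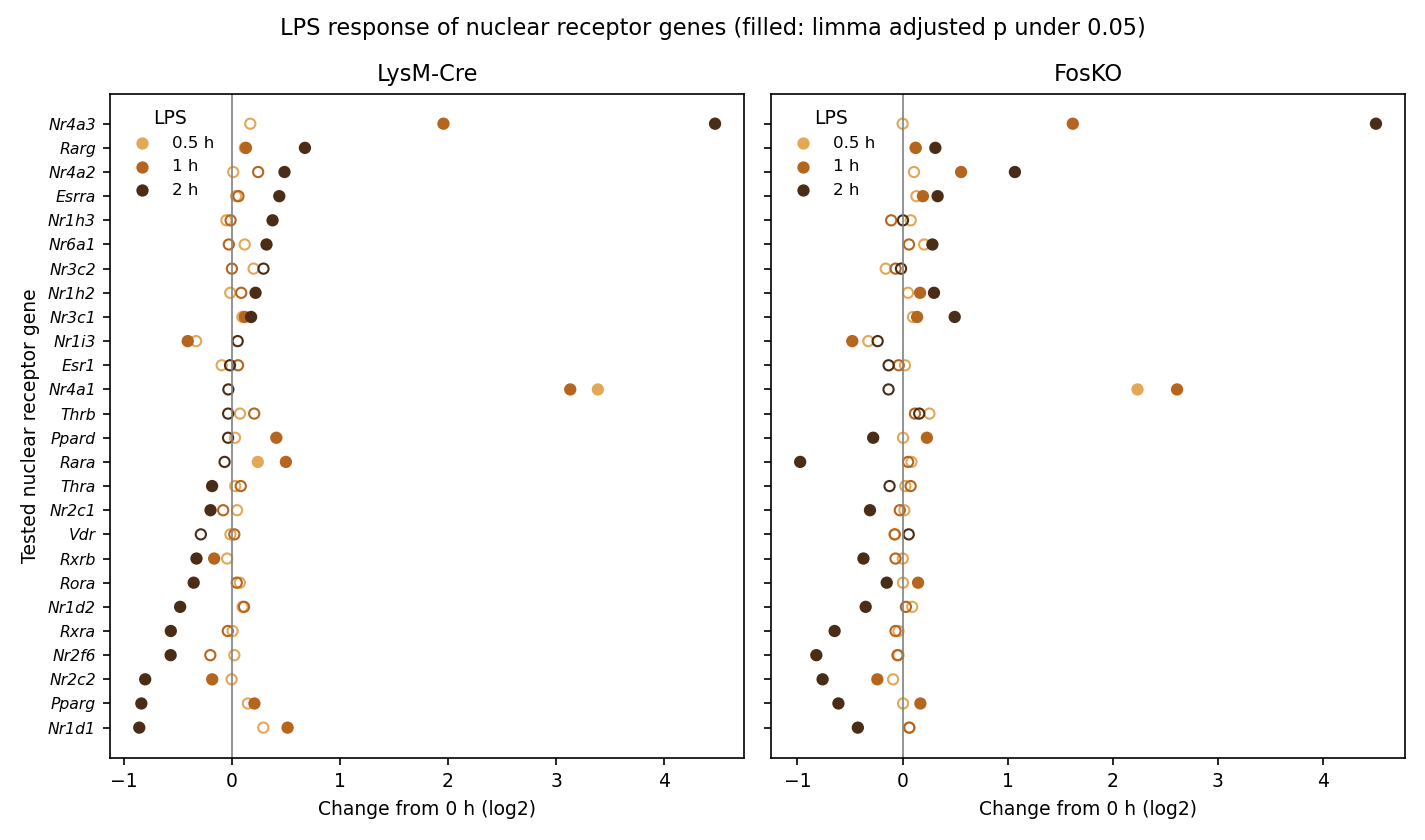
Change from 0 h (log2) of the 26 tested nuclear receptor genes, the 3 Nr4a genes included, in LysM-Cre (left) and in FosKO-labelled libraries (right), with darker points for later times and filled points where the limma adjusted p was under 0.05. Nr4a1 at 0.5 and 1 h and Nr4a3 at 1 and 2 h lie apart from the 23 receptors outside the family, whose changes stay between -0.97 (Rara, FosKO-labelled, 2 h) and 0.68 (Rarg, LysM-Cre, 2 h), and Nr4a2 reaches 1.07 in FosKO-labelled libraries at 2 h.

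The factors known to act on transcription of the Nr4a genes had smaller LPS changes than the largest changes of Nr4a1 (3.39 at 0.5 h) and Nr4a3 (4.47 at 2 h) in LysM-Cre. Of 19 such factors (CREB, CRTC, MEF2, SRF and TCF factors and the class IIa deacetylases, which repress MEF2 targets, all tested), the limma test called 2 in LysM-Cre at 0.5 h, both higher, Mef2d (0.15) and Mef2a (0.14), where 7.24% of all genes were called. At 1 h 9 were higher and 3 lower, against a background of 35.8%. At 2 h 4 were higher and 11 lower, against a background of 60.8%, with the CREB coactivator Crtc2 (1.24), the SRF coactivator Mkl1 (-0.92), Creb1 (0.79) and Hdac5 (-0.66) ahead of the rest. At 0.5 h 7 of the 19 were lower and 2 higher in FosKO-labelled libraries, where 40.9% of all genes were called, and the largest of these differences was that of Mef2a (-0.32), followed by the TCF factor Elk3 (-0.30). The median difference was -0.10 beside 0.00 over all tested genes. At 1 h, when Nr4a1 was also called lower, 5 were lower and 1 higher, with a median of 0.01 and a background of 33.9%. At 2 h 6 were higher and 7 lower, with a background of 44.6%, led by the CRE-binding Crem (0.74), Mef2a (0.45), Mef2c (0.36) and Mkl1 (0.36). Their response at 2 h was called larger in 6 and smaller in 3 in FosKO-labelled libraries, where 15% of all genes were called.

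Nr4a1 was set beside 19 immediate early genes of the TCF and SRF class, a list that includes Fos. LPS raised 17 of them in LysM-Cre at 0.5 h and 18 at 1 h by the limma test, with medians of 2.41 and 1.86 and backgrounds of 7.24% and 35.8% of all genes, so the Nr4a1 rises of 3.39 and 3.13 were above the middle of the list, and Egr1 (5.43) rose most. At 0.5 h 14 of the 19 were lower in FosKO-labelled libraries and 3 higher, with a median of -0.28 beside 0.00 over all tested genes, of which 40.9% were called and 19.7% called lower. The MAP kinase phosphatase Dusp5 (-1.86), Egr3 (-0.95), Fosb (-0.88) and Fos (-0.77) differed most, and Nr4a1 (-1.27) lay between Dusp5 and Egr3. At 1 h 8 were higher and 5 lower, with a background of 33.9%, and at 2 h 10 were higher and 5 lower, with a background of 44.6% (24.4% higher). The response at 0.5 h was called smaller in 4 of the 19 (0.115% of all genes were called), Fos (-2.26), Dusp5 (-0.87), Egr3 (-0.72) and Dusp1 (-0.33), beside -1.15 for Nr4a1. Later the balance turned. The response was called larger in 6 and smaller in 3 at 1 h (median 0.12, background 1.22%). At 2 h it was larger in 9 and smaller in 2 (median 0.23, background 15%).

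Of 12 tested partners and coregulators, 2 were higher and 2 lower at 0.5 h in FosKO-labelled libraries by the limma test, near the background of 40.9%, with Rxra, the retinoid X receptor that pairs with NUR77 and NURR1, at 0.33. At 2 h 7 were higher and 1 lower, where 44.6% of all genes were called and 24.4% called higher, with a median of 0.14 and with Ncoa1 (0.38), Rxra (0.29), Ncoa3 (0.28) and Ep300 (0.24) at the top. In LysM-Cre 9 of the 12 were lower after 2 h of LPS, Rxra (-0.56) among them, and 2 were higher, where 60.8% of all genes were called. Of 12 genes known from other tissues to answer NR4A factors, 6 passed the filter. At 0.5 h Tnfsf10, which encodes the death ligand TRAIL, was higher (1.89) and the steroidogenic gene Star lower (-0.33) in FosKO-labelled libraries. The median was 0.01, and 40.9% of all genes were called. At 2 h Tnfsf10 (1.07), Spp1 (0.45) and Idh1 (0.06) were higher and Star (-0.48) was lower, where 44.6% of all genes were called. Tnfsf10 was already higher at 0 h (1.49), where no Nr4a member was called.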

How the data were processed

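RNA sequencing libraries were single-end and strand-specific according to the study's methods. The submitters' processing notes name STAR 2.5.2a, RSEM 1.2.31, DESeq2 1.16.1 and GRCm38. The study's methods name RefSeq genes, whereas the table carries Ensembl identifiers, so the annotation behind it is uncertain. The authors deposited 1 table of normalised log2 values, with a column for each library. The lowest was -2.22 and the highest 19.39, and genes with a mean below 0 varied little between libraries (median range 0.108), as in a regularised log, in which low genes are drawn towards their mean. Read counts could not be recovered.

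The 3 members and all gene lists were chosen with earlier results of these data known. Tested genes reached 5 on the linear scale in 3 or more libraries. All 24 libraries entered 1 limma fit (limma 3.58.1, R 4.3.3) of 8 group means with a variance trend and 16 residual degrees of freedom, and 17 comparisons were adjusted by Benjamini-Hochberg over 13901 genes. The planned log2(value + 1) applied to linear values, so deposited values were used as they stood and the pseudocount became an alternative. Pairs of members were compared by an exact permutation test. The fit was tested on simulated data. Named genes were the members, the 5 genes most correlated with each, and up to 4 called members of each list with the largest differences. The 1017 genes without a symbol could be neither list members nor named. Alternatives were quantile normalisation, median centring, a pseudocount of 1, no filter, no variance trend, fitting only the groups compared, 18S RNA as a term or its high set alone, replicate blocks, and leaving out each library.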

Additional observations from a re-analysis of the deposited data

Results flagged for a closer look

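The LPS response of 2 members differed between the genotypes by the limma test of the difference itself. Nr4a1 rose less by 0.5 h in FosKO-labelled libraries than in LysM-Cre, with a difference of -1.15, at a time when 0.115% of all genes (16) were called. That call was lost with only the groups compared (adjusted p 0.0835). Nr4a2 rose more by 2 h, with a difference of 0.58, and is 1 of 2081 genes (15%) called at that time. In both cases the 3 FosKO-labelled libraries all lay on one side of the 3 LysM-Cre libraries at that LPS time and overlapped them at 0 h. That separation restates the genotype difference in level, for which 40.9% (0.5 h) and 44.6% (2 h) of all genes were called. The share of all genes separated in this way was not counted.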

How the results depend on the processing

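Of 54 results, 28 were called, 25 of these kept the call under every alternative that was run, and none of the 28 changed sign. The others were Nr4a1 in the response difference at 0.5 h (-1.15, limma adjusted p 0.0835 with only the groups compared), Nr4a1 in the FosKO-labelled step from 0.5 to 1 h (0.38, adjusted p 0.0619 with the same fit; 0.31 to 0.50 with a library left out) and Nr4a2 in that step (0.37, adjusted p 0.0689 in the high 18S libraries). Calls were gained by Nr4a2 at 1 h of LPS in LysM-Cre (0.35; 0.069 in the high 18S libraries, uncalled) and Nr4a3 by genotype at 1 h (-0.30) under quantile normalisation. Nr4a1 gained one in the LysM-Cre step from 0.5 to 1 h with the 18S term (-0.33) or the block within genotype (-0.26), and in the response difference at 1 h with that block (-0.52, adjusted p 0.0497). Nr4a2 gained one in the LysM-Cre step from 1 to 2 h with no trend, the replicate block or the block within genotype (0.24 in each) and in the high 18S libraries (0.42). The cause was not tested.

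Uncalled values that changed sign were Nr4a1 at 2 h of LPS in LysM-Cre (0.060 under quantile normalisation, 0.0010 under median centring), Nr4a2 by genotype at 0.5 h (0.0095 under quantile normalisation, 0.034 in the high 18S libraries), Nr4a2 at 0.5 h of LPS in LysM-Cre (-0.011 with the 18S term, -0.0026 in the high 18S libraries) and Nr4a3 in the response difference at 2 h (-0.0075 under quantile normalisation).

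With a library left out, LPS changes in LysM-Cre ran from -0.11 to 0.069 (Nr4a1, 2 h), -0.045 to 0.073 (Nr4a2, 0.5 h) and 0.16 to 0.33 (Nr4a2, 1 h). LysM-Cre steps ran from -0.38 to -0.17 (Nr4a1, 0.5 to 1 h), 0.15 to 0.32 (Nr4a2, 0.5 to 1 h) and 0.16 to 0.32 (Nr4a2, 1 to 2 h). Genotype differences ran from -0.11 to 0.018 (Nr4a2, 0.5 h), and for Nr4a3 from -0.044 to 0.14 at 0 h, -0.45 to -0.19 at 1 h and -0.014 to 0.14 at 2 h. The FosKO-labelled change of Nr4a3 at 0.5 h ran from -0.060 to 0.042 and its response difference at 2 h from -0.065 to 0.13. Other uncalled ranges included Nr4a1 by genotype at 0 h (-0.19 to -0.062) and 2 h (-0.32 to -0.14), Nr4a2 by genotype at 0 h (-0.18 to -0.053) and 1 h (0.10 to 0.28) and Nr4a1 in FosKO-labelled libraries at 2 h (-0.20 to -0.064). Calls were gained without LysM-Cre 0.5 h replicate 1 (Nr4a1 step, -0.38), LysM-Cre 1 h replicate 1 (Nr4a2 at 1 h, 0.33, and its step, 0.32), LysM-Cre 1 h replicate 3 (Nr4a2 step to 2 h, 0.32) and FosKO-labelled 1 h replicate 3 (Nr4a3 by genotype, -0.45). Same-numbered libraries of the 2 genotypes did not deviate together (r from -0.53 to 0.31 over 12 pairs), so numbers were not taken as pairs. Same-numbered libraries of 1 genotype at different times had r up to 0.71 (median 0.06, 36 pairs), beside 0.42 (median -0.03, 72 pairs) for different numbers, and the permutation test treats them as independent. The 3 comparisons between members kept their call under every alternative (-0.92, -0.60 and 0.32 with the replicate block). That block pairs same-numbered libraries of the 2 genotypes at each time. It does not address dependence between times, which none of the alternatives tested for these comparisons. Depth was unknown.

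Counts of called genes moved by over 1.5 times in places. Among response differences, the 16 calls at 0.5 h became 26 under quantile normalisation, 25 with the block within genotype, 9 in the high 18S libraries and 6 with only the groups compared, and the 169 at 1 h became 93 and 112 in the latter pair. The high 18S libraries also gave 2994 genotype calls at 1 h in place of 4708, and in LysM-Cre 3009 in place of 4970 for LPS at 1 h and 2010 in place of 3725 from 0.5 to 1 h. With only the groups compared, FosKO-labelled calls were 301 in place of 823 at 0.5 h and 2471 in place of 3819 from 0.5 to 1 h.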
